A study of Mus musculus with 12 samples.

Results

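RNA sequencing was used to compare mouse CD4+ T cells treated with FK506 alone with those treated with *L. acidophilus* alone, 3 libraries against 3 of the 12 libraries of the series. Of 45777 genes, the 23585 whose count was not 0 in 3 or more libraries of the series were compared. All samples are labelled as CD4+ T cells from the spleen of wild-type mice and all received an antibody to CD3 (0.5 ug/mL, 3 days), so both groups carried the same activating stimulus and differed in the added agent. The labels name the strain Balb/c and an age of 7 weeks, whereas the methods of the study name B6 mice for the RNA-seq and give an older age for its mice. The other groups were anti-CD3 alone and the combination of both agents, with 3 libraries each, and their libraries enter the gene filter and the estimate of the spread, while their levels are printed for a few genes and plotted for those in the panels by library. The study's methods describe the bacteria as heat-inactivated and the CD4+ cells as bound to CD4-coated magnetic beads, but give no dose for the RNA-seq cultures, so the treatments cannot be called dose-matched. Beside the labelled cell type, markers of B cells were detected in all 6 libraries: the 18 markers other than immunoglobulin genes summed to 80.8 to 107 FPKM with *L. acidophilus* and 359 to 660 with FK506. The sums include *Cd37*, a gene also active in T cells, which made up most of each *L. acidophilus* sum but not of the FK506 sums. Neither the labels nor the methods say whether replicates 1 to 3 came from separate mice or cultures, so the tests measure the spread between these libraries, which may be technical.

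FK506 (tacrolimus) binds the immunophilin FKBP12, and the complex blocks calcineurin, the phosphatase that lets NFAT transcription factors enter the nucleus after T-cell receptor stimulation. NFAT drives many cytokine and effector genes of activated T cells. *L. acidophilus* is a lactic acid bacterium whose cell wall and nucleic acids are sensed by Toll-like and Nod receptors, mainly on B cells, macrophages and dendritic cells. The comparison therefore sets a drug acting on T-cell receptor signaling beside a bacterial preparation under one stimulus.

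The 6 FK506 and *L. acidophilus* libraries held 46254697 to 64658165 counts, and replicate 1 of each group of the series was the deepest. On the first principal component of the 12 libraries (66.1% of the variance) *L. acidophilus* replicate 1 lay at -19.2, apart from replicates 2 and 3 at -54.0 and -56.3 and toward the FK506 libraries. FK506 replicate 3 lay at 4.29, against 38.9 for both other FK506 libraries. List counts that change without either library are therefore given with and without it. Below, values of a gene are FPKM (fragments scaled to transcript length and library size) in replicates 1, 2 and 3, in that order. Log2 fold changes are FK506 minus *L. acidophilus* with their standard error (SE), and adjusted p-values are Benjamini-Hochberg values over all 23585 genes from edgeR's quasi-likelihood test on the counts. A gene was called when its adjusted p was under 0.05 and its change at least 2-fold.

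FK506 and *L. acidophilus* differed in 1176 genes (4.99% of those tested), 827 higher with FK506 (3.51%) and 349 lower (1.48%). Of 33 gene lists, those of MHC class II genes and B-cell markers had the largest shares called higher, with 13 of 13 and 20 of 21. The lists of cytotoxic granule and effector cytokine genes had the lowest medians, with 4 of 16 and 7 of 29 called lower. The count of every list below stands against these shares of all genes, 3.51% higher and 1.48% lower. Between the groups, T-cell markers and the genes of DNA replication, ribosome biogenesis and oxidative phosphorylation gave no calls. Without the fold cut-off 1774 genes passed (7.52%), and 4984 genes had an unadjusted p under 0.05. For 1161 of the 1176 called genes (98.7%) the FK506 and *L. acidophilus* libraries did not overlap in counts scaled to library size, as was so for 6986 of all genes tested (29.6%). The median log2 fold change of all genes tested was -0.01. Left out singly, *L. acidophilus* replicate 1 gave 1465 calls and FK506 replicate 3 gave 1303. The count was 677 without *L. acidophilus* replicate 2, 670 without *L. acidophilus* replicate 3 and 743 without FK506 replicate 2. With limma on log2(FPKM + 1), where the added 1 shrinks the fold changes of weakly expressed genes, 441 of 527 calls were higher with FK506 (83.7%), against 70.3% in edgeR's fit.

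**Figure D1:**
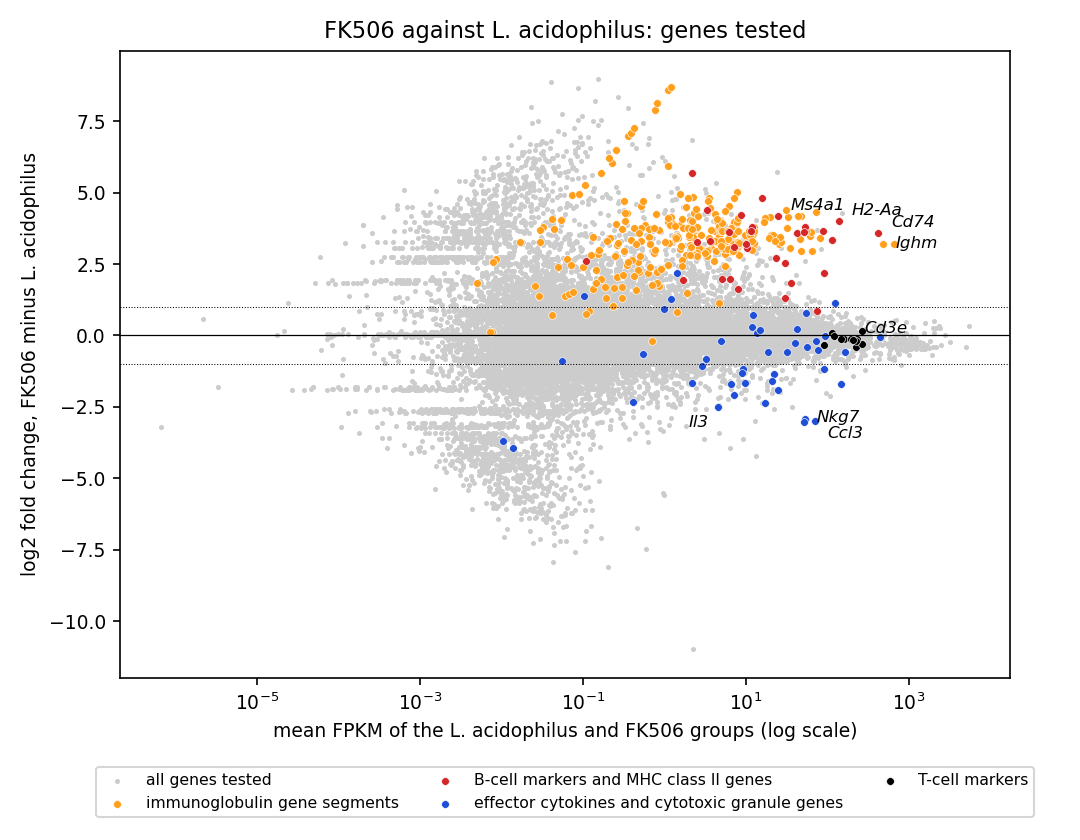
Each point is 1 gene. The x axis is its mean FPKM over the *L. acidophilus* and FK506 groups on a log scale, the y axis its log2 fold change, FK506 minus *L. acidophilus*, and dotted lines mark 2-fold changes. Immunoglobulin segments (orange), B-cell markers and MHC class II genes (red) lie mostly above the upper line, T-cell markers (black) near 0, and *Nkg7*, *Ccl3* and *Il3* among the effector and cytotoxic genes (blue) below the lower line. The 175 genes with an FPKM of 0 in all 6 libraries are not drawn.

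MHC class II molecules present peptides to CD4+ T cells and are made by B cells, dendritic cells and macrophages; mouse T cells make little of them. All 13 genes of the MHC class II and antigen loading list rose with FK506, against 3.51% of all genes. Their median log2 fold change was 3.35 (range 1.32 to 4.23). *H2-Aa*, the alpha chain of I-A, had an FPKM of 24.0, 13.6 and 9.10 with *L. acidophilus* and 322, 280 and 175 with FK506. Its lowest FK506 library was thus far above its highest *L. acidophilus* library (log2 fold change 4.01, SE 0.40, adjusted p = 0.000219, edgeR). *Cd74*, the invariant chain that guards the peptide groove, rose from 90.5, 58.5 and 41.0 to 977, 818 and 539 (log2 fold change 3.58, SE 0.34, adjusted p = 0.000182, edgeR). *Ciita*, the coactivator that switches these genes on, rose from 1.26, 0.773 and 0.432 to 18.2, 20.4 and 10.4 (log2 fold change 4.23, SE 0.48, adjusted p = 0.000431, edgeR). The peptide editors *H2-DMb1* and *H2-DMb2* rose by 3.78 and 3.63 on the log2 scale, and *H2-DMa* by 1.32. The DM inhibitor genes *H2-Oa* and *H2-Ob* rose by 1.61 and 3.20. The lysosomal enzymes *Ctss*, *Ifi30* and *Lgmn*, which cut or reduce the proteins to be presented, rose as well, *Ctss* by 1.84 and *Lgmn* by 1.98. The call of *Lgmn* was lost without *L. acidophilus* replicate 2 or 3 or FK506 replicate 1 (adjusted p = 0.0719, 0.0639 and 0.0504, edgeR), whereas the other 12 genes kept their calls in all 12 fits that left out 1 library.

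Levels of B-cell markers, given below, were high in the same libraries as these genes, and their part in the MHC class II values was not tested. MHC class II promoters are known for X and Y boxes, at which the RFX and NF-Y factors assemble and to which CIITA is recruited. Here the Y box alone was searched. The bases before the transcription start are shown for the genes of the list whose RefSeq promoter window (GRCm38.p6, 250 bases before to 50 after the start) holds TGATTGG, the core of the Y box, searched on both strands. Of the 13 genes, 10 had a window and 6 held this motif, as did 7.82% of all 32851 windows; these 7 letters end in ATTGG, the inverted CCAAT box, so the motif overlaps that more general one. The full Y box CTGATTGG was in the windows of 3 of the 10 genes and in 4.10% of all windows. Each sequence is the 120 bases up to the last base before the start, 5′ to 3′ on the strand of the gene, with TGATTGG in capitals. The stretches lie on chromosome 17 at chr17:34287824-34287943 (*H2-Aa*, minus strand), chr17:34305747-34305866 (*H2-Eb1*, plus), chr17:34153071-34153190 (*H2-DMb1*, plus), chr17:34145129-34145248 (*H2-DMb2*, plus), chr17:34092259-34092378 (*H2-Oa*, plus) and chr17:34238785-34238904 (*H2-Ob*, plus). The motif begins 45 to 92 bases before the start in these 6 genes.
H2-Aa: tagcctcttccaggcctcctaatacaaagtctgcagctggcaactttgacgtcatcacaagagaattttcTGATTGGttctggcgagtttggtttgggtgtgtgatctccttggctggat
H2-Eb1: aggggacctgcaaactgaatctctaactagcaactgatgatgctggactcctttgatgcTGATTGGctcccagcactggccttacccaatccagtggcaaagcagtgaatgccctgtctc
H2-DMb1: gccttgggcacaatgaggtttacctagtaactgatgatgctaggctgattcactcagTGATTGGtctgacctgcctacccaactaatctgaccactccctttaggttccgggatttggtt
H2-DMb2: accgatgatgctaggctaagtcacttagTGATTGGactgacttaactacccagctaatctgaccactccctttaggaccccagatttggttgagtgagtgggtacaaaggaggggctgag
H2-Oa: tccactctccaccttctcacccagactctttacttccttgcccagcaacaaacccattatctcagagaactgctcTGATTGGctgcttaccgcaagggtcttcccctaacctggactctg
H2-Ob: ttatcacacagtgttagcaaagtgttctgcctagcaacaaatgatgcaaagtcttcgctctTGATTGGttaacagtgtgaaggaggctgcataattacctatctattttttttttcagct

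*H2-Ea-ps*, looked at after its values were seen, is annotated as a pseudogene in the C57BL/6 reference, since that strain carries a deletion at the start of the I-E alpha gene, which Balb/c mice transcribe. It had an FPKM of 23.0, 11 and 8.70 with *L. acidophilus* and 362, 305 and 192 with FK506 (log2 fold change 4.29, SE 0.44, adjusted p = 0.000239, edgeR). Its levels were thus close to those of *H2-Aa* in each of the 6 libraries.

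B cells carry an antigen receptor made of surface immunoglobulin and the CD79 signaling chains. Of 21 B-cell markers, 20 rose with FK506 and 0 fell, and the median over all 21 was a log2 fold change of 3.26. Without *L. acidophilus* replicate 1 or without FK506 replicate 3 the count was again 20. *Ms4a1*, which encodes the B-cell surface protein CD20, rose from 3.37, 2.64 and 1.51 with *L. acidophilus* to 61.2, 53.7 and 26.1 with FK506 (log2 fold change 4.18, SE 0.34, adjusted p = 6.91e-05, edgeR). *Cd79a*, one of the signaling chains, rose from 8.04, 7.00 and 5.68 to 126, 102 and 65.7 (log2 fold change 3.78, SE 0.28, adjusted p = 6.91e-05, edgeR). The inhibitory receptor gene *Cd22* rose by 4.80, and the transcription factor genes *Pax5* and *Ebf1*, which hold B-cell identity, by 3.11 and 1.95 on the log2 scale. *Cd37*, a tetraspanin gene also active in T cells, was the marker not called, at 60.6, 48.4 and 48.2 with *L. acidophilus* and 100, 108 and 76.8 with FK506 (log2 fold change 0.84, SE 0.12, adjusted p = 0.00192, edgeR). FK506 replicate 3 was the lowest of the FK506 libraries for 20 of the 21 markers and replicate 1 the highest, or level with the highest, for 14, and *L. acidophilus* replicate 1 was the highest of its group for 18.

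The immunoglobulin constant genes, most of them chosen after their values were seen, were compared by heavy chain class. Whether their transcripts came from class-switched cells was not tested. *Ighm*, the mu chain of IgM, rose from 139, 75.1 and 58.2 to 1257, 723 and 601 (log2 fold change 3.20, SE 0.37, adjusted p = 0.000445, edgeR). *Ighd*, the delta chain that naive B cells express beside mu, rose from 0.761, 0.330 and 0.200 to 14.4, 20 and 10.4 (log2 fold change 5.03, SE 0.40, adjusted p = 6.91e-05, edgeR). The gamma 1 and epsilon chain genes *Ighg1* and *Ighe* were also higher with FK506. *Ighg1* rose from 8.36, 8.75 and 5.97 to 108, 61.1 and 79.2 (log2 fold change 3.39, SE 0.49, adjusted p = 0.00164, edgeR), and *Ighe* from 0.425, 0.685 and 0.367 to 20.6, 4.42 and 10.0 (log2 fold change 4.52, SE 0.61, adjusted p = 0.00116, edgeR). In the combination the same 2 genes were at 3.59, 11.7 and 12.0 and at 0.130, 0.256 and 0.457, close to the *L. acidophilus* levels. *Ighg3* rose by 3.65, while *Ighg2b* (1.60, adjusted p = 0.255, edgeR), *Ighg2c* (-0.21, adjusted p = 0.928, edgeR) and *Igha* (adjusted p = 0.652, edgeR) did not pass the test. Among the light chains, the kappa constant gene *Igkc* rose from 207, 98.3 and 70.0 to 1969, 793 and 801, a log2 fold change of 3.20, and *Iglc1*, *Iglc2* and *Iglc3* of the lambda locus rose by 4.18, 3.67 and 4.16.

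Segments of the antigen receptor loci were also counted after their values were seen. Of 265 immunoglobulin segments and constant genes tested, 162 were higher with FK506 (61.1%) and 0 lower, 222 had an unadjusted p under 0.05, and DESeq2 called 180 and limma 157 higher and 0 lower. They made up 19.6% of the genes called higher. Their median log2 fold change was 3.36, or 3.28 with segments at 0 in every library of a group set to a bound against 3 counts per library. Every other gene gave 665 higher and 349 lower of 23320. By locus, 80 of 143 heavy chain, 74 of 111 kappa and 8 of 11 lambda genes were higher. Variable segments are near-identical copies, so the counting may have split reads between them and single segments are uncertain. Of 231 T-cell receptor segments 8 were higher and 0 lower (19 at an unadjusted p under 0.05; DESeq2 8 higher, limma 7 higher), with a median of 0.17. Left out singly, *L. acidophilus* replicate 1 gave 167 immunoglobulin segments higher, FK506 replicate 3 gave 160, and FK506 replicate 1 gave 118; over all 12 such fits the number ran from 107 to 169. The lowest numbers came without *L. acidophilus* replicate 3 (107) and *L. acidophilus* replicate 2 (110), and the T-cell receptor segments called higher dropped to 2 without FK506 replicate 2 or *L. acidophilus* replicate 3 and to 3 without *L. acidophilus* replicate 2.

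**Figure D2:**
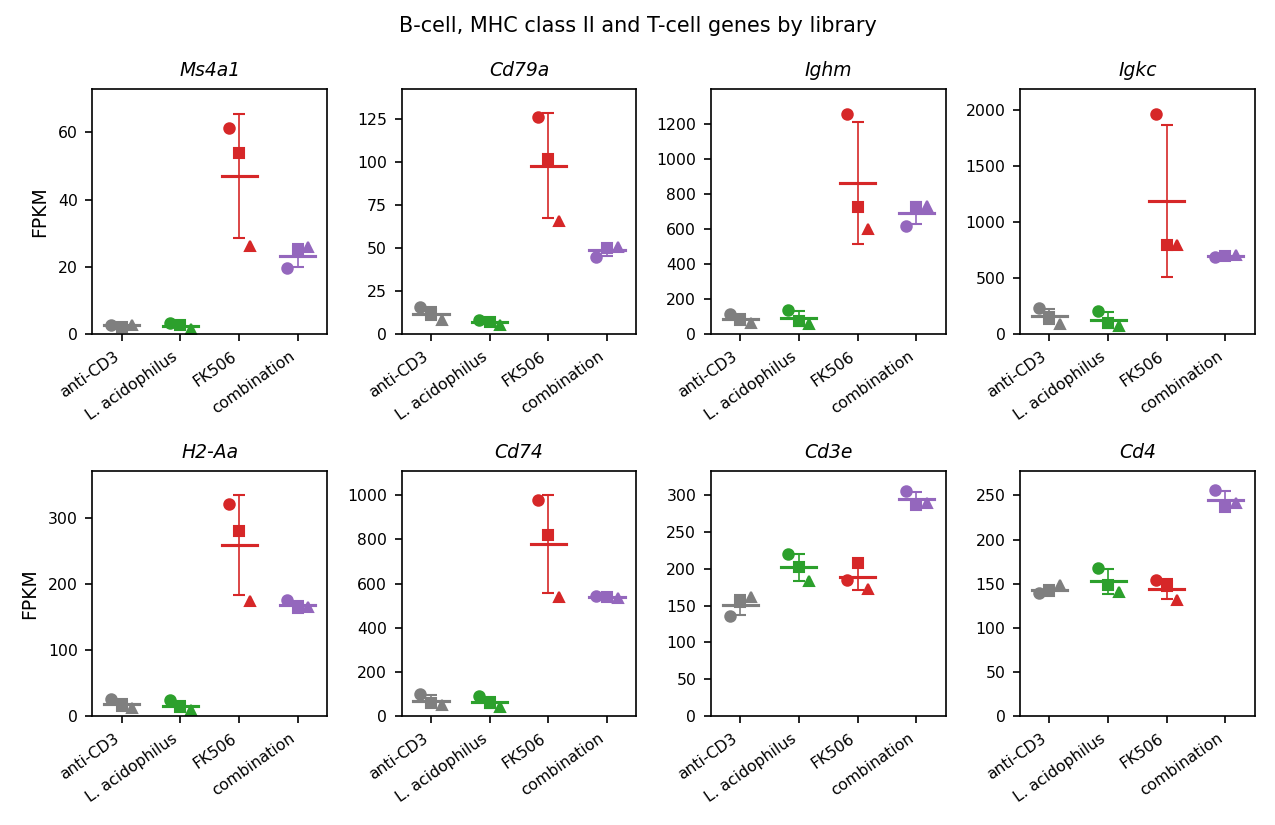
FPKM of 8 genes in each library of the 4 groups (circles, squares and triangles are replicates 1, 2 and 3; horizontal lines are means and bars the SD of 3 libraries). For *Ms4a1*, *Cd79a*, *Ighm*, *Igkc*, *H2-Aa* and *Cd74* every FK506 library lies above every *L. acidophilus* and anti-CD3 library, while for *Cd3e* and *Cd4* the FK506 and *L. acidophilus* libraries overlap.

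The T-cell markers gave the check of the labelled cell type. *Cd3e*, a chain of the T-cell receptor complex, was at 220, 202 and 184 with *L. acidophilus* and 185, 208 and 173 with FK506, and *Cd4* at 168, 149 and 141 and at 154, 147 and 131. Of 12 T-cell markers 0 were called by edgeR, DESeq2 or limma and 0 had an unadjusted p under 0.05, with a median log2 fold change of -0.14. Their summed level was 2222 to 2419 FPKM with *L. acidophilus* and 2030 to 2289 with FK506, against 209 to 454 and 1771 to 3901 for the 21 B-cell markers, where *Ighm* and *Igkc* made up most of the FK506 sums. The T-cell receptor beta constant gene *Trbc2* was at 714, 793 and 718 and at 724, 799 and 633. In bulk samples such as these, fewer cells of a type and less RNA per cell cannot be told apart.

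Markers of further cell types were low. *Cd8b1* was at 3.16, 6.09 and 5.67 with *L. acidophilus* and 6.85, 4.37 and 3.99 with FK506, with overlapping groups, and *Cd8a* rose from 0.184, 0.196 and 0.0993 to 2.18, 0.868 and 0.641 (log2 fold change 2.88, SE 0.58, adjusted p = 0.0105, edgeR; 0.0586 without *L. acidophilus* replicate 3). Of 15 macrophage and monocyte markers tested 4 were higher with FK506 (5 without *L. acidophilus* replicate 1, 6 without FK506 replicate 3, and 2 without *L. acidophilus* replicate 2 or 3 or FK506 replicate 1), and their summed level was 5.75 to 12.4 FPKM with *L. acidophilus* and 7.65 to 22.0 with FK506. *C1qa*, a complement gene of macrophages, had 0 counts in all 3 *L. acidophilus* libraries and 28, 23 and 11 with FK506, at least 6.87-fold higher against a floor of 3 counts per library, which covers counting error only. *Lyz2*, lysozyme of myeloid cells, was at 0.181, 0 and 0 with *L. acidophilus* and at 5.55, 1.00 and 0.378 with FK506. Its call was lost without *L. acidophilus* replicate 2 or 3 or FK506 replicate 1 (adjusted p = 0.0818, 0.0808 and 0.0707, edgeR). The neutrophil marker *S100a8* was at 0 in all 6 libraries. Of 7 neutrophil markers tested 0 were called (4 at an unadjusted p under 0.05; DESeq2 2, limma 0), but 2 were higher without FK506 replicate 3. Of 7 NK markers 0 were called (2 at an unadjusted p under 0.05; DESeq2 0, limma 0), but 3 were higher without *L. acidophilus* replicate 1, with summed NK levels of 1.63 to 3.27 and 2.18 to 8.05 FPKM. Erythroid markers summed to at most 0.509 FPKM in these 6 libraries, with 0 of 5 called (1 at an unadjusted p under 0.05; DESeq2 0, limma 0).

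Antibody-secreting cells are marked by secretion genes. Of 7 plasma cell markers 2 were higher with FK506 and 0 lower, 3 and 0 without *L. acidophilus* replicate 1 and 2 and 1 without FK506 replicate 1. *Mzb1*, an endoplasmic reticulum cochaperone of B-lineage cells, rose from 18.4, 14.9 and 10.2 to 154, 59.9 and 57.3 (log2 fold change 2.61, SE 0.42, adjusted p = 0.00307, edgeR), and *Derl3*, a gene of protein degradation in the secretory pathway, by 2.44. *Jchain*, which links IgM and IgA into polymers, was at 4.03, 0.135 and 0.133 with *L. acidophilus* and 51.3, 12.1 and 11.6 with FK506, without overlap but short of the threshold (log2 fold change 4.05, SE 1.22, adjusted p = 0.0693, edgeR). *Sdc1*, the plasma cell surface marker CD138, had a log2 fold change of -0.80 (adjusted p = 0.0777, edgeR). *Slpi*, a secreted protease inhibitor picked after its values were seen, had 1 of the largest differences, from 1.84, 0.527 and 0.174 with *L. acidophilus* to 61.2, 36.5 and 44.0 with FK506 (log2 fold change 5.71, SE 1.05, adjusted p = 0.00633, edgeR). It was at 2.46, 0.596 and 0.801 in the combination.

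Of 10 dendritic cell markers tested 3 were higher with FK506 and 1 lower (5 and 1 without *L. acidophilus* replicate 1, 4 and 1 without FK506 replicate 3, and 3 and 0 without *L. acidophilus* replicate 2 or 3 or FK506 replicate 1 or 2). The transcription factor genes *Irf8* and *Tcf4*, also active in B cells, were among them. *Irf8* was at 21.0, 18.7 and 16.8 with *L. acidophilus* and 79.7, 74.3 and 56.6 with FK506. *Tcf4* and the integrin gene *Itgax* rose by 2.18 and 1.93 on the log2 scale. The lower gene was *Batf3*, a factor of dendritic cells and of activated T cells, at 10.6, 10.2 and 15.7 with *L. acidophilus* and 3.05, 2.25 and 6.65 with FK506 (log2 fold change -1.63, SE 0.43, adjusted p = 0.0379, edgeR). *Flt3*, the receptor that marks dendritic cells and their progenitors, was at 0.620, 0.182 and 0.278 and at 1.47, 0.877 and 0.319, and did not pass the test (adjusted p = 0.149, edgeR).

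Bacterial sensing receptors bind lipopeptides, nucleic acids and cell wall fragments of microbes. Of 30 such genes tested 10 were higher with FK506 and 1 was lower (12 and 2 without *L. acidophilus* replicate 1, 12 and 1 without FK506 replicate 3). The count was 6 and 1 without *L. acidophilus* replicate 3. *Tlr9*, the receptor of CpG DNA, rose from 0.344, 0.158 and 0.0724 to 4.25, 4.57 and 2.43 (log2 fold change 4.20, SE 0.45, adjusted p = 0.000291, edgeR), and *Tlr7*, the receptor of single-stranded RNA, from 1.04, 0.642 and 0.451 to 10.7, 7.80 and 6.99 (log2 fold change 3.61, SE 0.34, adjusted p = 0.000167, edgeR). *Tlr1*, which pairs with TLR2 in sensing lipopeptides, rose by 2.40 (adjusted p = 0.00963, edgeR; 0.0520 without *L. acidophilus* replicate 3). *Tlr12* and the beta-glucan receptor gene *Clec7a* rose by 2.46 and 3.00. The receptors most tied to gram-positive cell walls were low in both groups. *Tlr2* was at 0.737, 0.326 and 0.399 with *L. acidophilus* and 0.823, 0.610 and 0.595 with FK506 (adjusted p = 0.609, edgeR), and *Nod2* at 0.689, 0.613 and 0.509 and at 0.921, 0.869 and 0.749 (adjusted p = 0.279, edgeR). *Ripk2*, the kinase downstream of Nod1 and Nod2, was lower with FK506, at 5.74, 5.73 and 7.59 against 9.62, 19.4 and 21.9 (log2 fold change -1.45, SE 0.26, adjusted p = 0.00541, edgeR). The B-cell markers rose in the same libraries as these receptors, and their part in the receptor values was not tested.

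Effector cytokines are the secreted products by which activated T cells act on other cells, and many of their genes are NFAT targets. Of 29 such genes 7 fell with FK506 and 0 rose, the median being a log2 fold change of -0.59, against 1.48% of all genes called lower. Without *L. acidophilus* replicate 1 the counts were 8 lower and 2 higher, and without FK506 replicate 3 they were 6 and 0. They were 5 and 0 without FK506 replicate 1 or 2. The chemokine genes *Ccl3* and *Ccl4*, whose products draw leukocytes to sites of inflammation, fell most. *Ccl3* was at 181, 89.7 and 98.1 with *L. acidophilus* and 10.2, 12.3 and 24.8 with FK506 (log2 fold change -2.99, SE 0.36, adjusted p = 0.000559, edgeR), and *Ccl4* at 130, 70.7 and 77.9 and at 9.56, 11.5 and 16.6 (log2 fold change -2.92, SE 0.29, adjusted p = 0.000196, edgeR). *Ccl5*, another chemokine gene, fell from 13, 10.7 and 14.3 to 6.86, 5.27 and 4.99, a log2 fold change of -1.19 (adjusted p = 0.00176, edgeR). *Il3*, a growth factor of basophils and mast cells, was at 5.31, 8.88 and 8.78 with *L. acidophilus* and 1.32, 0.862 and 1.93 with FK506 (log2 fold change -2.49, SE 0.37, adjusted p = 0.00199, edgeR). *Tnfsf14*, which encodes the costimulatory ligand LIGHT, fell by 2.07 on the log2 scale. *Il21*, the helper cytokine for germinal centers, was at 58.0, 21.6 and 36.4 and at 8.09, 6.77 and 16.6 (log2 fold change -1.90, SE 0.40, adjusted p = 0.0128, edgeR), and lost its call without FK506 replicate 1 or 2 (adjusted p = 0.0592 and 0.0638, edgeR). *Il6* was low and fell from 1.35, 0.219 and 0.502 to 0.135, 0.157 and 0.107; its call was lost without *L. acidophilus* replicate 1 or 3 or any FK506 library (highest adjusted p = 0.101, edgeR).

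Other cytokines of activated T cells, *Il2* among them, did not pass the test. *Il2*, the T-cell growth factor, was at 13.3, 38.7 and 41.4 with *L. acidophilus* and 6.10, 10.4 and 15.2 with FK506, with overlapping libraries (log2 fold change -1.58, SE 0.47, adjusted p = 0.0644, edgeR). *Csf2* was at 14.2, 14.7 and 15.3 and at 6.21, 2.82 and 5.27, without overlap but short of the threshold (log2 fold change -1.65, SE 0.65, adjusted p = 0.167, edgeR). *Ifng* was at 26.0, 5.91 and 6.42 with *L. acidophilus* and 4.13, 4.02 and 7.34 with FK506 (adjusted p = 0.214, edgeR), *L. acidophilus* replicate 1 standing above the rest. The same library was the highest for *Il4*, at 91.0 against 17.7 and 21.9, and for *Il10*, at 134 against 20.3 and 37.5; neither gene passed the test (log2 fold changes -0.28, SE 0.58, and -0.41, SE 0.68, adjusted p = 0.853 and 0.801, edgeR). *Tnf* had a log2 fold change of 0.19 (adjusted p = 0.537, edgeR).

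Cytotoxic granule genes encode the proteins with which T cells kill target cells. Of 16 tested 4 fell with FK506 and 0 rose, the median being a log2 fold change of -0.85, or -0.73 with genes at 0 in every library of a group set to their bound. The count was again 4 without *L. acidophilus* replicate 1 and without FK506 replicate 3. It was 3 without *L. acidophilus* replicate 3 or FK506 replicate 2, and 5 without FK506 replicate 1. *Nkg7*, a granule membrane gene, was at 102, 94.4 and 81.1 with *L. acidophilus* and 19.1, 7.83 and 7.75 with FK506 (log2 fold change -3.03, SE 0.31, adjusted p = 0.000222, edgeR). *Crtam*, a surface marker of CD4+ cells with cytotoxic features, fell from 16.8, 38.0 and 31.2 to 5.74, 5.57 and 5.87 (log2 fold change -2.36, SE 0.37, adjusted p = 0.00267, edgeR). *Ctsw*, a protease of cytotoxic cells, fell by 1.35 on the log2 scale. *Prf1*, the pore-forming perforin, fell from 2.68, 3.36 and 3.74 to 1.65, 0.762 and 0.762, a log2 fold change of -1.65 (adjusted p = 0.0123, edgeR; 0.0534 without *L. acidophilus* replicate 3 and 0.0639 without FK506 replicate 2). *Gzmb* was at 178, 208 and 275 and at 136, 32.1 and 42.8, without overlap, but did not pass the test (log2 fold change -1.69, SE 0.55, adjusted p = 0.0900, edgeR). *Gzma* had overlapping groups (adjusted p = 0.758, edgeR).

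**Figure D3:**
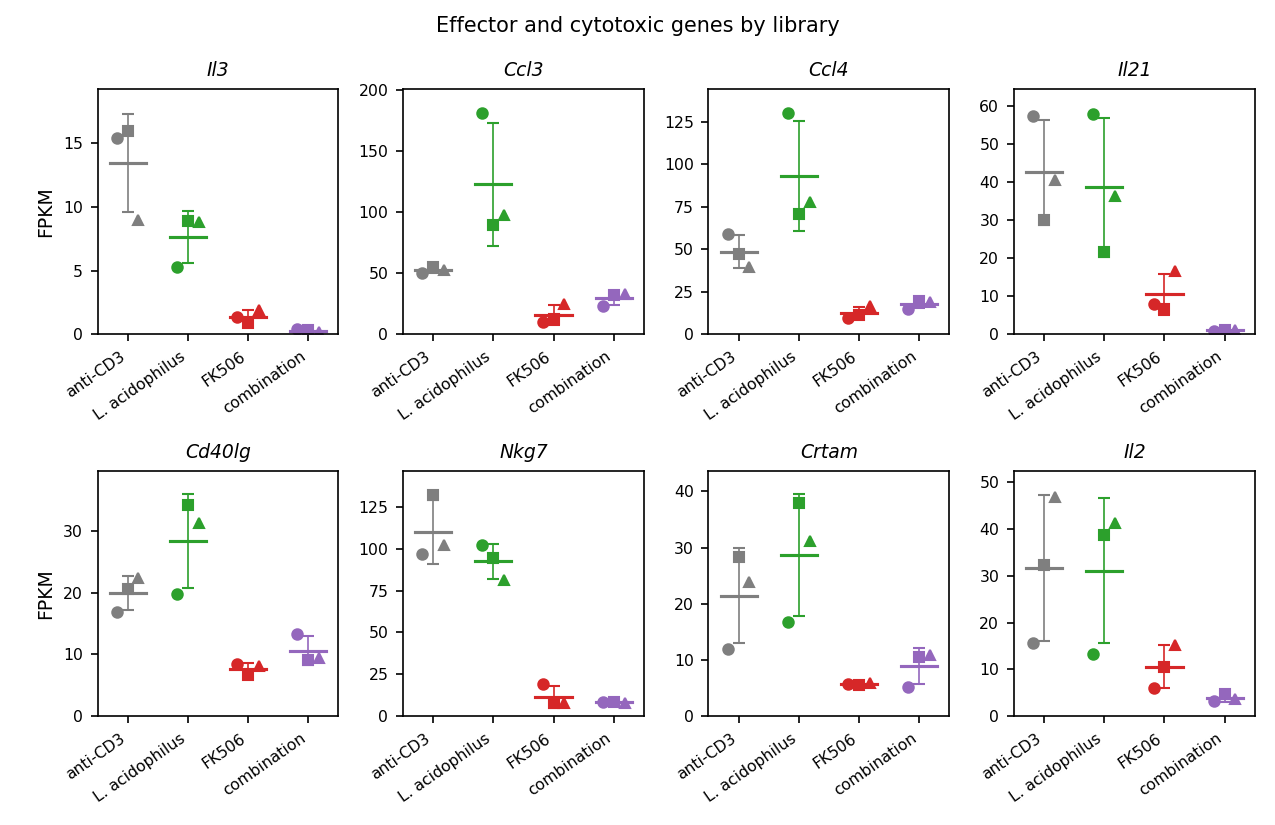
FPKM of 8 effector and cytotoxic genes in each library of the 4 groups (circles, squares and triangles are replicates 1, 2 and 3; horizontal lines are means and bars the SD of 3 libraries). All FK506 libraries lie below all *L. acidophilus* libraries for the genes shown except *Il2*, where *L. acidophilus* replicate 1 (13.3) is below FK506 replicate 3 (15.2).

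Activation receptors and costimulatory genes split in direction, with 3 of 26 higher and 3 lower with FK506 (5 and 3 without *L. acidophilus* replicate 1, 3 and 3 without FK506 replicate 3). The counts were 2 and 3 without *L. acidophilus* replicate 2 or 3 or FK506 replicate 1 or 2. *Cd40lg*, the CD40 ligand through which helper cells drive B cells, was at 19.8, 34.2 and 31.4 with *L. acidophilus* and 8.45, 6.61 and 8.07 with FK506 (log2 fold change -1.92, SE 0.23, adjusted p = 0.000537, edgeR). *Il12rb2*, the signaling chain of the IL-12 receptor, fell from 17.1, 26.8 and 34.7 to 4.38, 2.77 and 8.23 (log2 fold change -2.37, SE 0.35, adjusted p = 0.00195, edgeR), and *Cd200*, an inhibitory ligand of activated and follicular helper cells, by 1.57 on the log2 scale. *Il18r1* rose from 1.51, 0.368 and 0.611 to 4.56, 4.04 and 2.09, and the other chain of the IL-18 receptor, *Il18rap*, rose by 1.51; the call of *Il18r1* was lost without *L. acidophilus* replicate 2 or 3 or FK506 replicate 1 or 2 (adjusted p up to 0.106, edgeR). *Il2ra*, the high-affinity IL-2 receptor chain, was at 466, 363 and 443 and at 393, 294 and 427, with overlapping groups (adjusted p = 0.460, edgeR). The early activation marker *Cd69* had a log2 fold change of 0.37 (adjusted p = 0.121, edgeR).

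Among lineage genes, the Th1 list held calls in opposite directions, 4 of 15 higher and 2 lower with FK506. The counts were 6 and 2 without *L. acidophilus* replicate 1, and 1 was lower without *L. acidophilus* replicate 2 or 3 or FK506 replicate 1 or 2. *Tbx21*, which encodes the Th1 factor T-bet, was at 35.6, 39.2 and 39.0 with *L. acidophilus* and 12.5, 13.3 and 24.3 with FK506 (log2 fold change -1.21, SE 0.27, adjusted p = 0.0197, edgeR). Its paralog *Eomes* moved the other way, from 0.822, 1.30 and 1.02 to 6.22, 8.05 and 2.89 (log2 fold change 2.39, SE 0.40, adjusted p = 0.00410, edgeR), as did *Txk*, a Tec family kinase, from 1.59, 0.481 and 0.809 to 6.17, 7.47 and 3.66 (log2 fold change 2.51, SE 0.43, adjusted p = 0.00445, edgeR). The call of *Tbx21* was lost without *L. acidophilus* replicate 2 or 3 or FK506 replicate 1 or 2 (adjusted p = 0.0707, 0.0679, 0.0798 and 0.0974, edgeR), and those of *Eomes* and *Txk* held in all 12 fits that left out 1 library. Of 15 Th2 and Th9 genes 1 was called (6.67%, against 4.99% of all genes), *Spi1*, which encodes PU.1 and is also a B-cell and myeloid factor (log2 fold change 2.40, adjusted p = 0.00230, edgeR). The count was 3 without *L. acidophilus* replicate 1. *Gata3*, the Th2 factor, was at 90.5, 86.0 and 84.4 and at 63.4, 50.5 and 70.9, a difference under 2-fold (log2 fold change -0.53, SE 0.13, adjusted p = 0.0251, edgeR).

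Regulatory T cells depend on *Foxp3*. Of 21 Treg lineage and suppressor genes 5 were higher with FK506 and 0 lower, against 3.51% and 1.48% of all genes, and the list's median was 0.79. Without *L. acidophilus* replicate 1 the count was 13 higher, and without FK506 replicate 3 it was 7. It was 2 without *L. acidophilus* replicate 2 or 3 or FK506 replicate 2, and without FK506 replicate 1 there were 3 higher and 1 lower. *Foxp3* itself was at 24.7, 7.53 and 7.76 with *L. acidophilus* and 44.8, 35.6 and 21.9 with FK506, *L. acidophilus* replicate 1 lying above FK506 replicate 3. Its difference did not pass the test (log2 fold change 1.31, SE 0.40, adjusted p = 0.0707, edgeR). *Swap70*, a guanine nucleotide exchange factor gene that B cells also express, rose from 10.4, 6.88 and 6.55 to 38.7, 37.8 and 24.3 (log2 fold change 2.04, SE 0.23, adjusted p = 0.000383, edgeR), and *Socs2*, a cytokine signaling inhibitor, by 1.21. *Ikzf2*, which encodes Helios, rose from 6.55, 1.62 and 1.78 to 12.4, 12.6 and 7.53 (log2 fold change 1.66, adjusted p = 0.0434, edgeR), but kept its call in 3 of the 12 fits that left out 1 library, those without anti-CD3 replicate 2, *L. acidophilus* replicate 1 or FK506 replicate 3 (adjusted p up to 0.160, edgeR). The calls of *Lrrc32*, which tethers latent TGF-beta, and *Gpr83* also depended on single libraries. *Lrrc32* reached an adjusted p of 0.0988, 0.0833, 0.0728 and 0.0732 without *L. acidophilus* replicates 2 and 3 and FK506 replicates 1 and 2, and *Gpr83* 0.0539, 0.0808 and 0.0583 without *L. acidophilus* replicates 2 and 3 and FK506 replicate 2 (edgeR).

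Th17 genes gave 2 of 18 higher and 1 lower, against 3.51% and 1.48% of all genes. *Il17a*, the defining cytokine of Th17 cells, was at 1.12, 0.138 and 0.190 with *L. acidophilus* and 5.15, 1.37 and 0.469 with FK506 (adjusted p = 0.207, edgeR), with overlapping groups. *Ccr6*, the chemokine receptor of Th17 cells and of B cells, rose from 1.01, 0.182 and 0.218 to 4.65, 6.89 and 2.26, a log2 fold change of 2.95 (adjusted p = 0.0228, edgeR). Its call was lost without *L. acidophilus* replicate 2 or 3 or FK506 replicate 1 or 2 (adjusted p = 0.0962, 0.101, 0.0588 and 0.0865, edgeR). Without *L. acidophilus* replicate 1 the Th17 list had 6 higher and 1 lower, without FK506 replicate 3 it had 3 and 1, and without *L. acidophilus* replicate 2 or 3 or FK506 replicate 1 or 2 it had 0 higher.

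The T follicular helper list had 3 of 12 genes higher and 2 lower. There were 4 higher without *L. acidophilus* replicate 1, and 1 lower without FK506 replicate 1 or 2. *Cxcr5*, the follicle-homing receptor of follicular helper cells and B cells, rose from 4.70, 2.95 and 2.83 to 17.9, 13.8 and 11.6 (log2 fold change 2.00, SE 0.25, adjusted p = 0.000646, edgeR). *Pou2af1*, a B-cell coactivator, rose from 19.4, 17.3 and 16.0 to 191, 127 and 125 (log2 fold change 3.03, SE 0.35, adjusted p = 0.000518, edgeR), and *Slamf6*, an adhesion receptor of T and B cells, from 21.5, 13.5 and 12.1 to 80.5, 73.7 and 42.9 (log2 fold change 2.11, SE 0.27, adjusted p = 0.000735, edgeR). All 3 are expressed by B cells too. The lower genes were *Il21* and *Cd200*, and the lineage factor *Bcl6* did not pass the test (log2 fold change 0.55, adjusted p = 0.136, edgeR).

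Transcription factors of activation gave 4 of 27 higher and 2 lower, against 3.51% and 1.48% of all genes. The B-cell markers rose in the same libraries as the genes called higher in this list and in those of lineage, homing and resting genes, and their part in these values was not tested. The count lower was 3 without *L. acidophilus* replicate 1 and 0 without *L. acidophilus* replicate 2 or 3 or FK506 replicate 1 or 2. *Id3*, which restrains E proteins, rose from 2.21, 1.99 and 1.65 to 9.16, 14.4 and 6.92 (log2 fold change 2.33, SE 0.30, adjusted p = 0.000792, edgeR), and *Myb* from 8.75, 6.35 and 5.26 to 18.7, 17.7 and 11.4 (log2 fold change 1.20, SE 0.20, adjusted p = 0.00395, edgeR). *Nr4a2*, an immediate early nuclear receptor gene, was lower with FK506, at 3.44, 4.67 and 4.70 against 7.77, 20.1 and 19.5 (log2 fold change -1.90, SE 0.46, adjusted p = 0.0266, edgeR). It lost its call when any *L. acidophilus* or FK506 library except *L. acidophilus* replicate 1 was left out (adjusted p from 0.0586 to 0.104, edgeR). *Nr4a1*, *Egr2*, *Irf4* and *Batf* had log2 fold changes of 0.76, -0.20, -0.22 and -0.34 and were not called.

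**Figure D4:**
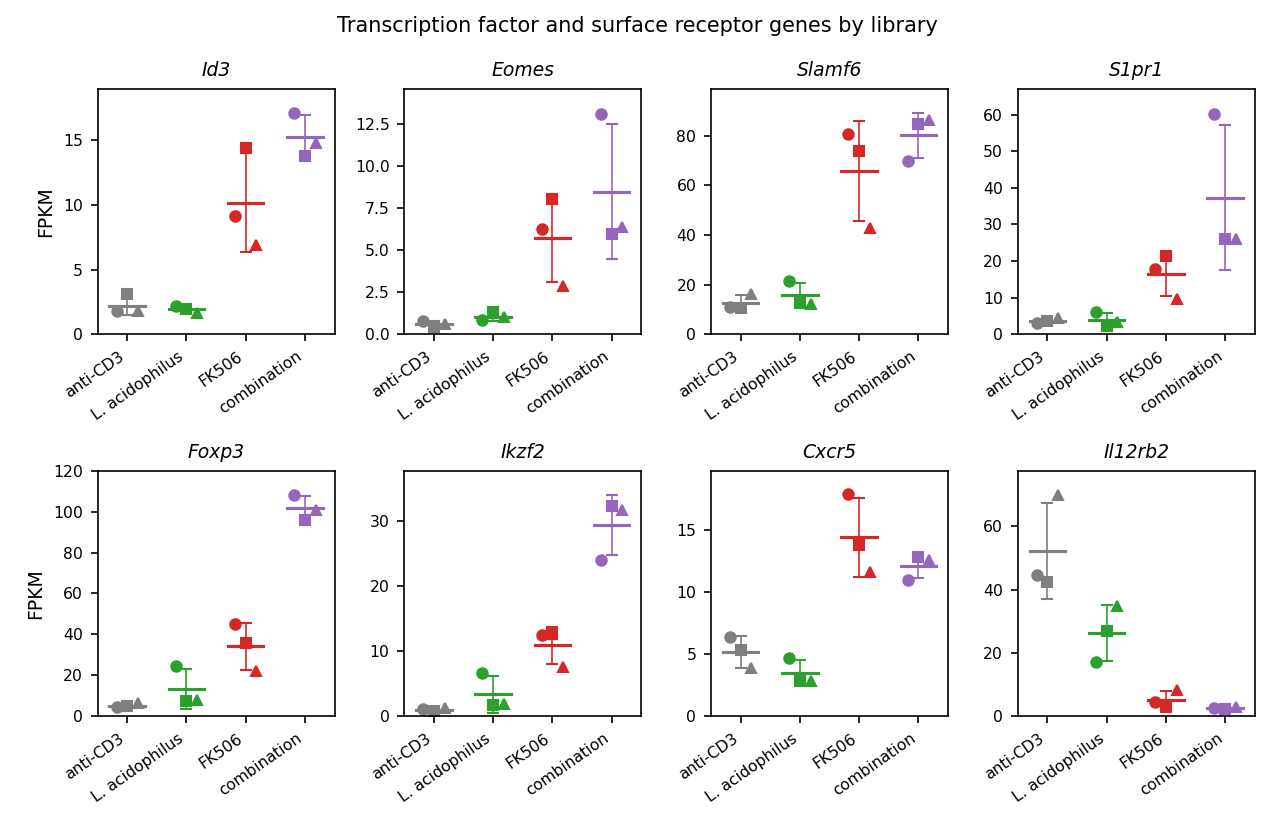
FPKM of 8 transcription factor and surface receptor genes in each library of the 4 groups (circles, squares and triangles are replicates 1, 2 and 3; horizontal lines are means and bars the SD of 3 libraries). *Id3*, *Eomes*, *Slamf6*, *S1pr1*, *Ikzf2* and *Cxcr5* are higher in every FK506 library than in every *L. acidophilus* library, *Il12rb2* is lower, and the groups overlap for *Foxp3*.

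Naive and resting T cells carry homing receptors that let them recirculate. Of 26 such genes 3 were higher with FK506 and 0 lower, against 3.51% and 1.48% of all genes, and again 3 and 0 without *L. acidophilus* replicate 1 or FK506 replicate 3, but 1 without *L. acidophilus* replicate 2 and 0 without *L. acidophilus* replicate 3 or FK506 replicate 2. *S1pr1*, the receptor for exit from lymphoid organs, rose from 6.14, 2.40 and 3.29 to 17.8, 21.5 and 9.76, a log2 fold change of 2.01 (adjusted p = 0.0131, edgeR). Without *L. acidophilus* replicate 2 or 3 or FK506 replicate 2 its adjusted p was 0.0648, 0.0684 and 0.0583 (edgeR). *Il7r*, the IL-7 receptor chain, rose less than 2-fold, from 20.8, 13.9 and 16.6 to 36.3, 29.8 and 30.7 (log2 fold change 0.88, SE 0.18, adjusted p = 0.0106, edgeR). *Ccr7*, a lymph node homing receptor gene, had overlapping groups (adjusted p = 0.993, edgeR). Of 25 chemokine receptors and integrins tested *Ccr2*, *Ccr6*, *Cxcr4*, *Cxcr5* and *Itga4* were higher and 0 lower, and B cells express several of these too, whose part in the values was not tested. The count of 5 became 9 without *L. acidophilus* replicate 1, was again 5 without FK506 replicate 3, and became 3 without FK506 replicate 2 and 1 without *L. acidophilus* replicate 2 or 3 or FK506 replicate 1. Among inhibitory receptors 1 of 15 was called (6.67%, against 4.99% of all genes), *Lair1*, a collagen receptor, at 1.46, 10.9 and 13.2 with *L. acidophilus* and 0.362, 0.765 and 1.27 with FK506 (log2 fold change -3.43, SE 0.83, adjusted p = 0.0265, edgeR). Without *L. acidophilus* replicate 1 the inhibitory list had 2 higher and 1 lower, and without FK506 replicate 3 it had 1 and 1. The call of *Lair1* was lost without *L. acidophilus* replicate 2 or 3 or FK506 replicate 1 or 2 (adjusted p = 0.0810, 0.0934, 0.102 and 0.112, edgeR). *Pdcd1* and *Lag3* were lower in every FK506 library than in every *L. acidophilus* library, by -0.48 and -0.33 on the log2 scale, but were not called (adjusted p = 0.332 and 0.193, edgeR).

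No gene of the calcineurin pathway itself was called. *Fkbp1a*, which encodes FKBP12, was at 160, 156 and 164 with *L. acidophilus* and 143, 146 and 177 with FK506, and the calcineurin subunit genes *Ppp3ca* and *Ppp3r1* had log2 fold changes of 0.38 and -0.09. Of 22 calcineurin, NFAT and FK506-binding genes tested 0 were called by edgeR, DESeq2 or limma, and 5 had an unadjusted p under 0.05. *Rcan1*, a feedback inhibitor whose transcription NFAT induces, was at 4.85, 4.70 and 3.86 and at 3.92, 3.86 and 3.72 (log2 fold change -0.27, adjusted p = 0.363, edgeR). Its groups overlap in FPKM but not in counts scaled to library size.

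Genes of growth and division gave no calls. Of 45 DNA replication and mitosis genes 0 were called (3 at an unadjusted p under 0.05; DESeq2 and limma 0), with log2 fold changes from -0.41 to 0.19. *Mki67*, a marker of cycling cells, was at 113, 93.1 and 108 with *L. acidophilus* and 110, 86.0 and 101 with FK506. Of 29 Myc and ribosome biogenesis genes 0 were called (3 at an unadjusted p under 0.05), and of 48 oxidative phosphorylation genes 0 (3 at an unadjusted p under 0.05), in each case also 0 by DESeq2 and limma. The 79 cytosolic ribosomal protein genes also gave 0 calls by edgeR, DESeq2 or limma, but all 79 lay below 0, between -0.69 and -0.02 with a median of -0.32, and 28 had an unadjusted p under 0.05. Of these, 3 passed the adjusted p alone with a change under 2-fold, *Rpl3* (0.0292), *Rpl7a* (0.0407) and *Rps2* (0.0475, edgeR). For the others, a p that misses the threshold does not show that the treatments act alike on these genes.

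In the metabolic lists few genes were called. Among 28 glycolysis and hypoxia genes 1 was called (3.57%, against 4.99% of all genes; 2 without *L. acidophilus* replicate 1), the aldolase gene *Aldoc*, which fell from 3.50, 9.06 and 10.6 to 1.62, 1.34 and 2.28 (log2 fold change -2.17, SE 0.38, adjusted p = 0.00478, edgeR). *Gapdh*, often used as a reference gene, was lower in every FK506 library, at 455, 366 and 537 against 639, 872 and 836 (log2 fold change -0.82, SE 0.17, adjusted p = 0.0125, edgeR). Of the list's 28 genes 25 lay below 0, with a median of -0.52. An unadjusted p under 0.05 was reached by 16 of them, against 4984 of all 23585 genes, and 5 passed the adjusted p without the fold cut-off. Among 32 genes of ATF4, amino acid and one-carbon metabolism 4 were lower and 0 higher. The count lower was 5 without *L. acidophilus* replicate 1 or FK506 replicate 3 and 2 without *L. acidophilus* replicate 3 or FK506 replicate 2, and 7 without anti-CD3 replicate 1. DESeq2 called 8 of these genes lower and limma 0. The cationic amino acid transporter gene *Slc7a3* fell from 2.34, 1.32 and 1.41 to 0.354, 0.335 and 0.449 (log2 fold change -2.14, SE 0.33, adjusted p = 0.00259, edgeR), the neutral amino acid transporter gene *Slc1a4* by 1.41, and *Eif4ebp1*, a translation repressor, by 1.04. *Asns*, asparagine synthetase, was at 19.8, 16.3 and 17.6 and at 10.3, 7.41 and 10.9, just under 2-fold (log2 fold change -0.94, adjusted p = 0.0112, edgeR). The call of *Eif4ebp1* was lost without *L. acidophilus* replicate 3 or FK506 replicate 2 (adjusted p = 0.0641 and 0.0776, edgeR). Of 28 sterol and fatty acid genes 26 lay below 0, with a median of -0.38; 13 had an unadjusted p under 0.05 and 4 passed the adjusted p without the fold cut-off. With it 1 was called (3.57%, against 4.99% of all genes; 2 without *L. acidophilus* replicate 1), the desaturase gene *Scd2* (log2 fold change -1.43, adjusted p = 0.0418, edgeR). It kept its call in 5 of the 12 fits that left out 1 library, those without anti-CD3 replicate 1 or 2, *L. acidophilus* replicate 1, FK506 replicate 3 or combination replicate 1.

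Of 10 LXR and cholesterol efflux genes tested 1 was called, *Abca1*, against 4.99% of all genes, and the median log2 fold change was 0.09 with 6 genes above 0. Without FK506 replicate 3 there were 2 higher and 1 lower. *Abca1* and *Abcg1*, the cholesterol efflux pumps switched on by the sterol receptor LXR, were higher with *L. acidophilus* than with FK506 or anti-CD3 alone in every library. In the combination *Abca1* was at 1.58, 1.69 and 1.72 and *Abcg1* at 9.19, 7.33 and 6.79, the latter at or above its highest *L. acidophilus* library. *Abca1* was at 2.08, 2.54 and 2.77 with *L. acidophilus*, 1.09, 1.05 and 1.20 with FK506 and 0.690, 0.847 and 1.57 with anti-CD3 alone (log2 fold change -1.18, SE 0.23, adjusted p = 0.00845, edgeR). *Abcg1* was at 6.79, 6.14 and 6.48, at 3.57, 3.78 and 3.93 and at 3.27, 2.57 and 3.07 (log2 fold change -0.82, SE 0.14, adjusted p = 0.00445, edgeR). Against anti-CD3 alone *Abcg1* had a log2 fold change of 1.04 with *L. acidophilus* (adjusted p = 0.0204, edgeR) and 0.22 with FK506 (adjusted p = 0.294, edgeR).

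Interferon-stimulated genes gave 4 of 48 higher and 1 lower, against 3.51% and 1.48% of all genes. The counts were 5 and 0 without *L. acidophilus* replicate 1 and 3 and 1 without FK506 replicate 3. The number higher was 2 without *L. acidophilus* replicate 2 or 3 or FK506 replicate 2, and 8 without combination replicate 1, with only the 6 libraries or by DESeq2. Of the 48 genes 33 lay above 0 and 15 below, and 20 had an unadjusted p under 0.05. Without the fold cut-off 11 passed the adjusted p in either direction, against 7.52% of all genes. *Ifi203*, a nuclear nucleic acid sensor family gene, rose from 2.26, 2.03 and 2.19 to 11.8, 12.2 and 6.46 (log2 fold change 2.31, SE 0.36, adjusted p = 0.00261, edgeR), and its family member *Ifi204* was also called higher (adjusted p = 0.00320, edgeR). *Isg15* and *Irf7*, the core genes of the type I interferon response, had overlapping groups (adjusted p = 0.732 and 0.495, edgeR). The interferon-induced gene *Ifitm3*, outside the list and picked after its values were seen, went the other way, from 15.6, 6.34 and 7.30 to 2.68, 1.45 and 2.22 (log2 fold change -2.22, SE 0.39, adjusted p = 0.00464, edgeR).

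**Figure D5:**
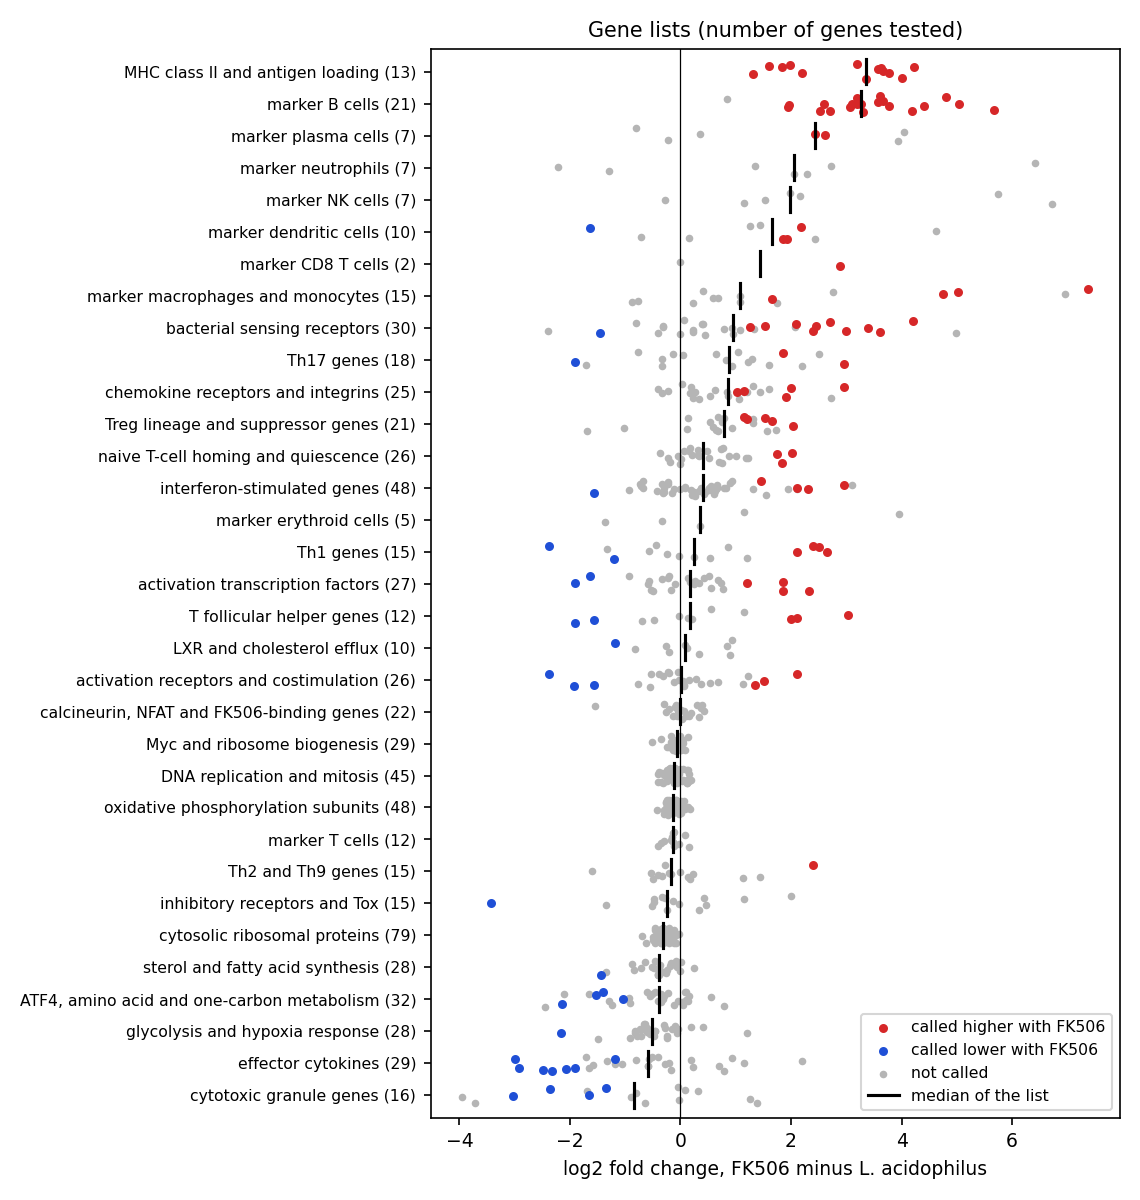
Log2 fold changes, FK506 minus *L. acidophilus*, of the genes in 33 lists ordered by their median (black bar), with the number of genes tested in brackets; vertical scatter within a list has no meaning. Red and blue points are genes called higher and lower with FK506 and grey points are not called. The MHC class II and B-cell lists lie far to the right (medians 3.35 and 3.26), the T-cell markers at -0.14, and the cytotoxic granule and effector cytokine lists have the lowest medians (-0.85 and -0.59).

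Outside the lists, rises and falls were named by size, leaving out genes with a clone or model name. Among those left out, *1810009J06Rik* had a larger fall than any gene named (log2 fold change -5.58, adjusted p = 0.00583, edgeR). Of the rises 3 were immunoglobulin variable segments at 0 counts in all *L. acidophilus* libraries. *Ighv1-55* had 45, 28 and 16 counts with FK506, at least 9.69-fold higher against 3 counts per library, and *Igkv4-63* 48, 34 and 23, at least 11.6-fold higher. *Igkv4-90* was at least 16.9-fold higher, led by FK506 replicate 1 with an FPKM of 6.08 against 0.313 and 0.746. *Mmp12*, the macrophage elastase, rose from 0.0911, 0 and 0 to 6.56, 4.80 and 1.60 (log2 fold change 6.86, SE 0.81, adjusted p = 0.000536, edgeR), and was higher still in the combination, at 15.7, 18.6 and 18.3. *Rnase6*, an antimicrobial ribonuclease gene, rose from 0.0374, 0.0379 and 0 to 2.66, 2.03 and 1.24 (log2 fold change 6.12, SE 0.74, adjusted p = 0.000584, edgeR). *Grm6* and *Rassf6* rose by 6.70 and 7.43 and *Ighv7-1* by 5.94 on the log2 scale, from under 0.1 FPKM in every *L. acidophilus* library. The calls of *Igkv4-90* and *Igkv4-63* were lost in 4 fits each that left out 1 library, without *L. acidophilus* replicate 2 (adjusted p = 0.0864 and 0.0699, edgeR) or 3 (0.0852 and 0.0674) in both, without *L. acidophilus* replicate 1 (0.0573) or combination replicate 2 (0.0533) for *Igkv4-90*, and without FK506 replicate 1 (0.0527) or 2 (0.0599) for *Igkv4-63*.

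Among the falls, *Timp1*, an inhibitor of matrix metalloproteinases, went from 22.6, 13.9 and 14.7 with *L. acidophilus* to 1.04, 0.967 and 2.12 with FK506 (log2 fold change -3.64, SE 0.35, adjusted p = 0.000182, edgeR). *Osr2*, a zinc finger factor gene, went from 7.75, 14.3 and 13.6 to 1.09, 0.504 and 0.754 (log2 fold change -3.93, SE 0.41, adjusted p = 0.000246, edgeR). *Edn1*, which encodes the vasoactive peptide endothelin-1, went from 4.10, 35.5 and 36.0 to 0.364, 0.980 and 2.78, with *L. acidophilus* replicate 1 far below the other 2 (log2 fold change -4.22, SE 1.00, adjusted p = 0.0238, edgeR). Its adjusted p was 0.0762, 0.0758, 0.0830 and 0.115 without *L. acidophilus* replicates 2 and 3 and FK506 replicates 1 and 2 (edgeR). *Gnai1*, an inhibitory G protein subunit gene, was at 1.10, 1.33 and 1.09 with *L. acidophilus*, 0.101, 0.0179 and 0.138 with FK506 and 0.243, 0.148 and 0.198 with anti-CD3 alone (log2 fold change -3.73, SE 0.60, adjusted p = 0.00309, edgeR). The integrin gene *Itga9* fell by 3.28, the cytoskeletal gene *Dpysl3* by 3.39, and *Dgkk* by 3.64 on the log2 scale. *Dgkk* lost its call without *L. acidophilus* replicate 2 or 3 or FK506 replicate 2 (adjusted p = 0.0547, 0.0520 and 0.0745, edgeR). *Tgm2*, transglutaminase 2, and *Penk*, which encodes the precursor of the enkephalins, were picked after their values were seen. *Tgm2* was at 40.3, 62.9 and 85.4 with *L. acidophilus*, 10.3, 6.66 and 17.0 with FK506 and 287, 220 and 203 with anti-CD3 alone, and *Penk* at 94.1, 241 and 177, at 38.7, 47.6 and 34.9 and at 91.1, 214 and 139.

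Set beside anti-CD3 alone, the single treatments stood at different distances from it for the genes above. These contrasts share the anti-CD3 libraries and the treated libraries with the main one, so they are given side by side and support nothing further. *Ms4a1* had a log2 fold change against anti-CD3 of 4.02 with FK506 and -0.16 with *L. acidophilus*, *H2-Aa* of 3.73 and -0.28, and *Ighm* of 3.17 and -0.04. For *Nkg7* the values were -3.37 and -0.34, for *Il12rb2* -3.42 and -1.05, and for *Timp1* -5.07 and -1.43. *Ccl3* was -1.84 with FK506 and 1.15 with *L. acidophilus*, on opposite sides of anti-CD3, and *Ccl4* -2.07 and 0.85; the *L. acidophilus* values did not pass the test (adjusted p = 0.145 and 0.178, edgeR). For *Gnai1* the values were -1.26 and 2.47 (adjusted p = 0.156 and 0.0854, edgeR), and for *Foxp3* 2.62 and 1.31 (adjusted p = 0.00152 and 0.166, edgeR).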

How the data were processed

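RNA of 12 CD4+ T-cell samples was sequenced as polyA libraries, and the labels gave the groups and the replicate numbers. The submitters' processing notes name bcl2fastq 2.20.0, Trimmomatic, HISAT2 2.1.0, StringTie 2.1.3b and the builds mm10 and GRCm38. The authors deposited read counts as whole numbers per gene, without normalization, which may be rounded estimates from StringTie, and whether strand was used in counting is not given in the sources used here. The authors also deposited FPKM, in which fragments are divided by transcript length and by library size. The methods of the study name quantile normalization, while the counts used here are whole numbers with unequal totals. The 12 TPM columns were not used.

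The 23585 genes with a nonzero count in 3 or more libraries were fitted in R 4.3.3 with edgeR 4.0.16 (quasi-likelihood, TMM factors, 1 mean per group, 12 libraries, 8 residual degrees of freedom) and a gene was called where the adjusted p (Benjamini-Hochberg) was below 0.05 with a change of 2-fold or more. The standard error was taken as |log2 fold change| over the root of the F statistic. DESeq2 1.42.0 and limma 3.58.1 on log2(FPKM + 1) were alternatives, and the fits were tested on simulated counts. Libraries of one group all differed by more than counting noise (chi-square over its degrees of freedom, 4.48 to 188). For a single gene, exact permutation of 3 against 3 libraries (two-sided) gives p = 0.1 at the lowest.

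The comparison and the 33 gene lists were chosen with earlier results of these data known. Genes were named by rule: anchors of each list, up to 2 further called genes per list, and the 8 largest rises and 8 largest falls outside the lists without overlap, with a mean FPKM of at least 1 in the higher group and no clone or model name. All MHC class II and B-cell genes and the genes said to be picked after their values were seen, as well as further called list members, were added to these. Promoter sequences are from RefSeq (GRCm38.p6). Tables and plots were made in Python 3.11.15 (matplotlib 3.10.9). A few genes that the rule named are not reported here.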

Additional observations from a re-analysis of the deposited data

How the results depend on the processing

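With limma on log2(FPKM + 1) 527 genes were called, 441 higher and 86 lower with FK506, against 1176, 827 and 349 in edgeR's fit. Without the fold cut-off 1774 genes passed, 641 of them lower. When each of the 12 libraries was left out in turn, 670 to 1465 genes were called, 488 to 1048 higher and 169 to 417 lower. The lowest counts came without *L. acidophilus* replicate 3 (670), *L. acidophilus* replicate 2 (677) and FK506 replicate 2 (743). The total changed by less than 1.5 times with DESeq2 (1554 genes), library totals in place of TMM (1187), the low-count filter of edgeR (1256), no filter beyond 1 count (1224), only the 6 libraries (1107), limma on log2(FPKM + 0.1) (1101) and, chosen after seeing the data, replicates 2 and 3 only (1412). Counts within lists moved more. With replicates 2 and 3 only there were 14 Treg genes higher in place of 5, 11 chemokine receptors and integrins in place of 5, 11 interferon-stimulated genes in place of 4, 6 Th17 genes in place of 2, 3 Th2 and Th9 genes in place of 1 and 11 effector cytokines lower in place of 7. DESeq2 gave 5 Th17 genes, 5 naive T-cell genes and 8 interferon-stimulated genes higher in place of 2, 3 and 4. With limma on log2(FPKM + 1), 5 bacterial sensing genes were higher in place of 10 and 0 macrophage markers in place of 4. With only the 6 libraries, 2 Treg genes were higher in place of 5 and 7 ATF4 genes lower in place of 4. The labels number the replicates but do not say that equal numbers belong together, so the main fit did not take the numbers as pairs. The deviations of same-numbered FK506 and *L. acidophilus* libraries correlated by 0.474, 0.0620 and 0.420 across 13366 genes. For libraries of differing numbers the correlations ran from -0.437 to 0.241. Each FK506 library correlated best with the *L. acidophilus* library of its own number, a hint from the data and not from the design. A replicate block in the fit gave 1361 calls (945 higher, 416 lower). The list counts it moved by at least 2 genes and over 1.5 times were 7 Th17 genes higher in place of 2, 2 effector cytokine genes higher in place of 0, 8 Treg genes and 8 chemokine receptors and integrins in place of 5 each, 5 activation receptors in place of 3, and 8 ATF4 genes lower in place of 4. The block gave 1238 calls with only the 6 libraries. Of 137 named genes that were called, 99 kept their calls in all 12 fits that left out 1 library, and none of the 218 tested turned direction in any alternative while called. With limma on log2(FPKM + 1) 32 of the 137 lost their calls, and with only the 6 libraries 13 did. Named genes not called in the main fit gained calls too, 8 without *L. acidophilus* replicate 1 and 10 with replicates 2 and 3 only. The contrasts against anti-CD3 were fitted once, with no alternative.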
